A study of Mus musculus with 10 samples.

Results

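The interferon response genes are a set of 40 genes whose transcription interferon is known to switch on, and they were followed here in cardiac endothelial cells (ECs) of mice on a ketogenic diet (KD). They are given by gene symbol, by a rule that uses no measured value, though the list was chosen with earlier results of these data known. All 40 were found among the 46983 genes of the count table by their Ensembl identifiers, and all 40 passed the filter on low counts that left 15949 genes to be tested. The study fed wild type male C57BL/6J mice, 8 weeks old at the start, a control diet with 11.6% of its energy from fat or a KD with 89.5% for 14 days, both introduced alongside chow. Hearts of 5 mice per diet were digested, cells were captured with magnetic beads carrying an antibody to CD31, and 10 ng of RNA per mouse gave 1 library each, sequenced as 50-base single reads without strand. No group carried a transgene or a deleted allele.

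Interferons are secreted proteins that warn cells of infection. Type I interferons signal through Ifnar1 and Ifnar2 and the kinases Jak1 and Tyk2 to a factor that contains Stat2 and Irf9 and binds the interferon-stimulated response element (ISRE), whereas interferon gamma signals through Ifngr1 and Ifngr2 to the gamma-activated site (GAS). The induced genes sense viral RNA, cut or sequester it, coat membranes, attach the ubiquitin-like protein Isg15 to other proteins, or attack the vacuoles of intracellular parasites, and ECs carry the receptors and keep a basal level of many of these genes without infection.

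The libraries held 10885154 to 12710861 reads on genes. The labelled cell type was checked with 10 EC markers, whose summed level lay between 4379 and 4956 CPM, the reads on a gene scaled to the size of the library, in all mice. Reads on these markers may be capped, since at least 4 of the 10 had 50% or more of the positions where a read can start taken. The sum thus says that EC markers were abundant and little of how evenly. Markers of other cells moved with the diet. Those of cardiomyocytes summed to 624 to 786 CPM on the control diet and 738 to 1043 on the KD. Of these 10 markers, 8 were higher at an unadjusted p under 0.05, against 8.57% of all genes. Platelet markers summed to 405 to 660 and 188 to 483 CPM, and 5 of 6 were lower at that limit, against 9.26% of all genes. Lymphocyte markers summed to 261 to 385 CPM on the control diet and 216 to 264 on the KD, and macrophage markers to 178 to 706 and 162 to 332 CPM. Fibroblast markers, at 1025 to 1196 CPM in all mice, and mural cell markers, at 2412 to 2692 CPM, overlapped between the diets. In such bulk samples fewer cells of a type and less RNA per cell cannot be told apart.

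No interferon response gene was called different between the diets. In edgeR's quasi-likelihood test with Benjamini-Hochberg adjustment over all genes tested, 0 of 40 had an adjusted p under 0.05, against 1.34% of all genes, and the smallest adjusted p was 0.0811, that of Stat2. DESeq2's Wald test called 1 member, Stat2, with an adjusted p of 0.00824, among 816 genes in all (5.67% of those it tested), and limma on RPKM called 0. At an unadjusted p under 0.05, 4 members were lower on the KD, Stat2, Oas2, Irf1 and Irf9, which is 10.0% of the 40 against 9.26% of all genes. None was higher at that limit, against 8.57% of all genes. The fitted log2 fold change, KD over control, was below 0 for 31 of 40 members, against 51.4% of all genes, but it was small, with a median of −0.06 over the members and −0.0057 over all genes and a range from −0.35 (Zbp1) to 0.16 (Oas3). The fitted intervals were narrow for most members. Where reads on a gene are capped, as described below, a narrow interval does not exclude a larger change. The 95% interval of the log2 fold change lay within −0.5 and 0.5 for 35 of 40 members, against 61.7% of all genes, and within −1 and 1 for 38. The intervals of Zbp1, from −1.21 to 0.51, and of Oas3, from −1.18 to 1.49, reached further.

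**Figure D1:**
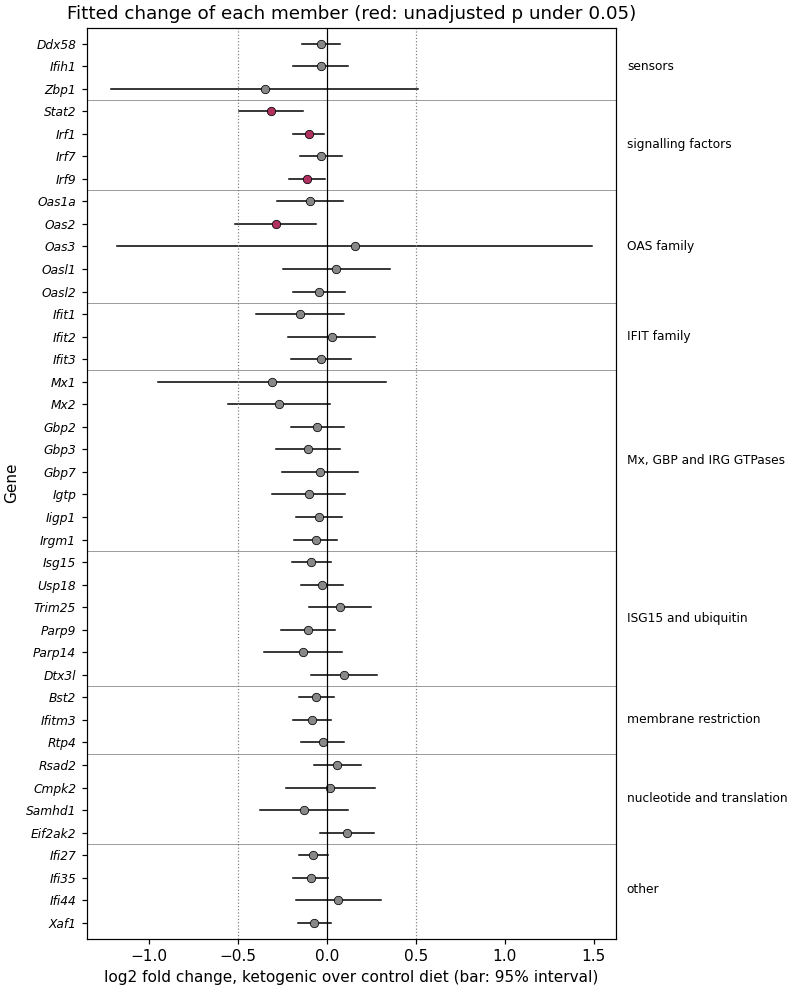
Fitted log2 fold change of each of the 40 members, KD over control diet (x axis), with its 95% interval as a bar and members grouped by role; n = 5 mice per diet. The points lie between −0.35 and 0.16, 31 of them left of 0, and the 4 red points, Stat2, Oas2, Irf1 and Irf9, had an unadjusted p under 0.05.

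Of the 4 transcription factors, 3 were lower at an unadjusted p under 0.05, while over all 40 members 10.0% were, against 9.26% of all genes. Stat2 (ENSMUSG00000040033.15, chromosome 10 from 128270559 to 128292849 on GRCm38), a subunit of the type I interferon factor, was the lowest in p of all members. It stood at 307, 317, 333, 417 and 315 CPM in control mice 1 to 5 and at 269, 299, 241, 272 and 280 CPM in KD mice 1 to 5. Every KD mouse was thus below every control mouse, and control mouse 4 was far above the other 4. Stat2 was the only 1 of the 40 with no overlap downward, against 1.94% of all genes, and 0 of 40 had none upward, against 2.4%. Its log2 fold change was −0.31 (SE, standard error, 0.0823, 95% interval −0.49 to −0.13, unadjusted p = 0.00254 and adjusted p = 0.0811 in edgeR's test).

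Irf9, which brings DNA binding to the same factor, differed less. Control mice 1 to 5 had 286, 293, 317, 340 and 305 CPM and KD mice 290, 289, 271, 285 and 290 CPM of Irf9. The KD mice lay in the lower part of the control range, and KD mice 3 and 4 were below all control mice, the latter narrowly. The log2 fold change of Irf9 was −0.11 (SE 0.0454, edgeR adjusted p = 0.220), and 123 bases of the gene's span are shared with Rnf31 on the same strand. Irf1, a factor induced by interferon gamma that in turn drives guanylate-binding protein genes, stood at 385, 361, 382, 385 and 376 CPM on the control diet and at 349, 386, 346, 347 and 329 CPM on the KD. KD mouse 2 was the highest of all 10 mice, while the other 4 KD mice were below all control mice. Raw reads of Irf1 varied little, from 4098 to 4399, so that its CPM depend on library depth. KD mouse 2 had the least deep KD library (11108020 reads) and KD mouse 5, the lowest in Irf1, the deepest (12710861). Irf1 changed by −0.10 (SE 0.0404, edgeR adjusted p = 0.209), and without KD mouse 2 its adjusted p was 0.0406, in a fit that called 3.05% of all genes. The fourth factor, Irf7, which amplifies type I interferon, had a log2 fold change of −0.03.

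**Figure D2:**
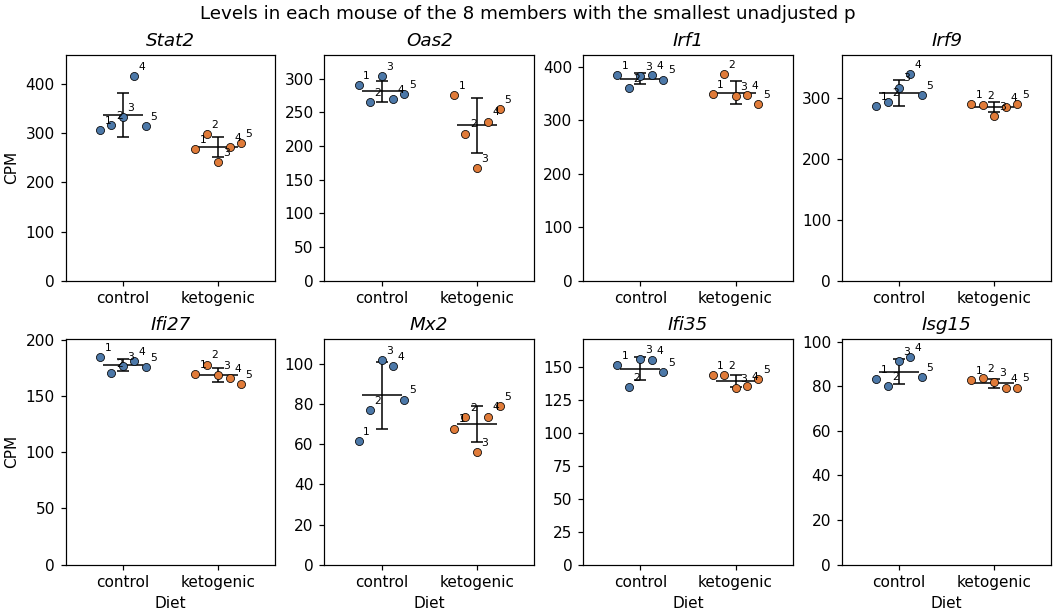
CPM (y axis, from 0) in each mouse of the 8 members with the smallest unadjusted p, by diet (x axis); points are mice with their replicate numbers, bars the mean and SD, n = 5 mice per diet. Only Stat2 shows no overlap, with KD mice at 241 to 299 CPM and control mice at 307 to 417 CPM.

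Active enzymes of the 2′,5′-oligoadenylate synthetase (OAS) family make the messenger that activates the RNA-cutting enzyme RNase L. Oas2 stood at 291, 266, 303, 270 and 277 CPM in control mice and at 276, 218, 168, 236 and 254 CPM in KD mice. KD mouse 1 lay inside the control range, the other 4 KD mice were below it, and KD mouse 3 was the lowest by far. The log2 fold change of Oas2 was −0.29 (SE 0.105, unadjusted p = 0.0178 and adjusted p = 0.182 in edgeR's test). Oas1a changed by −0.09 and Oasl2 by −0.04, and Oasl1 was fitted higher, at 0.05. Oas3 was barely expressed, with 0 to 34 reads per mouse, so that its estimate carries little weight.

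The RNA sensors Ddx58 (RIG-I) and Ifih1 (MDA5), which recognize viral RNA in the cytosol, were both at a log2 fold change of −0.04. The 95% interval was −0.14 to 0.07 for Ddx58 and −0.19 to 0.12 for Ifih1. Zbp1, a sensor of left-handed nucleic acid that can trigger necroptosis, was the most variable member that was not near 0 reads. Control mice 1 to 5 had 11.8, 13.6, 29.2, 54.1 and 13.9 CPM of Zbp1 and KD mice 27.2, 11.6, 19.2, 19.1 and 18.9 CPM. Within the control diet the highest mouse thus had 4.59 times the level of the lowest, and all KD mice but the lowest, mouse 2, fell inside that range.

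The IFIT proteins bind viral RNA at its 5′ end. Ifit1 changed by −0.15, Ifit3 by −0.03 and Ifit2 by 0.03 (edgeR adjusted p from 0.513 to 0.929). For Ifit1 the control mice had 191, 201, 293, 290 and 228 CPM and the KD mice 235, 201, 217, 206 and 224 CPM. Control mice 3 and 4 were above all others, and control mouse 1 was the lowest of the 10.

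All 8 GTPases were fitted lower, against 51.4% of all genes, none of them with an unadjusted p under 0.05, and the count was 4 of 8 without control mouse 4, when Gbp2, Gbp7, Igtp and Iigp1 were fitted higher. They comprise the Mx proteins, which trap viral nucleocapsids, the guanylate-binding proteins (GBPs) and the immunity-related GTPases (IRGs), which attack pathogen vacuoles. Mx2 stood at 61.6, 77.1, 102, 99.0 and 82.3 CPM in control mice and at 67.9, 73.8, 56.0, 73.9 and 78.9 CPM in KD mice. The diets overlapped, and Mx2's log2 fold change was −0.27 (SE 0.132, edgeR adjusted p = 0.314). Iigp1 was the second most abundant member, at a mean of 136 RPKM, the reads scaled to gene length and library size. It had 391, 396, 455, 492 and 433 CPM on the control diet and 409, 439, 432, 422 and 396 CPM on the KD, so that every KD mouse lay inside the control range. Its log2 fold change was −0.05. Gbp2 (−0.05), Gbp3 (−0.11), Gbp7 (−0.04), Igtp (−0.10) and Irgm1 (−0.06) were all small, and Igtp shares most of its span with Irgm2 on the same strand. Mx1, which is known to be defective in most laboratory strains, had 31 to 90 reads per mouse and a log2 fold change of −0.31 with a 95% interval of −0.95 to 0.33.

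Isg15 is the ubiquitin-like protein, induced by interferon, that is attached to many targets. Its level was 83.4, 80.2, 91.5, 93.1 and 84.1 CPM in control mice and 82.7, 83.6, 81.8, 79.4 and 79.4 CPM in KD mice. Control mice 3, 4 and 5 were above all KD mice, and control mice 1 and 2 were not. The log2 fold change of Isg15 was −0.09 (SE 0.0505, edgeR adjusted p = 0.394). Usp18, the protease that removes Isg15 and blocks the type I receptor, changed by −0.03. The ubiquitin ligase Trim25 (0.08) and Dtx3l (0.10) were fitted higher, whereas Parp9 (−0.11), the partner of Dtx3l, and Parp14 (−0.13) were fitted lower. Parp9 and Dtx3l overlap by 682 bases on opposite strands, and reads without strand cannot be told apart there.

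All 3 membrane proteins had a mean of at least 100 RPKM. Bst2 (tetherin), which holds budding virions at the cell surface, had the highest mean of all 40, at 162 RPKM. Control mice 1 to 5 had 133, 118, 129, 132 and 124 CPM and KD mice 125, 128, 122, 120 and 114 CPM of Bst2. Only KD mouse 5 was below all control mice, and the log2 fold change was −0.06. Ifitm3, which blocks viral fusion in endosomes and had a mean of 135 RPKM, stood at 99.0, 88.0, 97.1, 96.1 and 93.0 CPM on the control diet and at 91.1, 95.3, 88.8, 88.0 and 83.3 CPM on the KD. The diets overlapped, with a log2 fold change of −0.08 (SE 0.0490, edgeR adjusted p = 0.397). Rtp4, a chaperone of membrane receptors, changed by −0.02. A property of the deposited counts limits these values. Reads per gene level off near 1 per possible start position on each strand, and Bst2 had used 94.4% of them, Iigp1 79.3%, Ifitm3 78.7%, Isg15 64.4%, Gbp2 63.8% and Rtp4 58.7%. The gene lengths behind these shares were derived from the RPKM values and can be too long. Irf7, for example, has a derived length of 8114 bases but a shorter span, from 141262706 to 141266481. The shares may therefore be too low, also for members not named here. Differences in these 6 genes, and in any others whose reads are capped, may be understated. A correction based on the same lengths left all 40 members uncalled, with 31 still fitted lower. Where a length is too long it corrects too little, so it cannot decide whether the cap matters. Where raw reads are capped, CPM also fall as a library gets deeper. Bst2 had 1425 to 1469 raw reads and Ifitm3 1052 to 1091 in all mice. Both were highest in CPM in control mouse 1, the least deep library, and lowest in KD mouse 5, the deepest. KD libraries averaged 11877400 reads, against 11439100 on the control diet. Beyond this correction, the part of depth in the lower values was not tested.

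Enzymes that act on nucleotides and translation were fitted higher in 3 of 4 cases, a count that was 4 without control mouse 4 and 1 with a cardiomyocyte score as a covariate. Eif2ak2 (PKR), which halts translation on sensing double-stranded RNA, was at 0.11, Rsad2 (viperin), which makes a chain-terminating nucleotide, at 0.06, and its neighbour in function Cmpk2 at 0.02. Samhd1, which degrades deoxynucleotides, was at −0.13. None of the 4 had an adjusted p under 0.415. Of the remaining members, Ifi27, a mitochondrial and nuclear membrane protein, stood at 185, 170, 177, 181 and 176 CPM in control mice and at 169, 178, 169, 166 and 161 CPM in KD mice. KD mouse 2 overlapped the control range, and 4 KD mice were below every control mouse. Raw reads of Ifi27 were 1978 to 2076 in all mice, so that here too CPM depend on library depth. The log2 fold change of Ifi27 was −0.08 (SE 0.0367, edgeR adjusted p = 0.303). Ifi35 had 151, 134, 156, 155 and 146 CPM on the control diet and 144, 144, 134, 136 and 141 CPM on the KD, and its log2 fold change was −0.09 (edgeR adjusted p = 0.323). Here control mouse 2 lay within the KD range. Ifi35 shares 815 bases of its span with an antisense gene. Xaf1 changed by −0.07 and Ifi44 by 0.06.

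Seen as a score, the members differed more among control mice than between the diets. The interferon score of a mouse is the mean over the 40 members of their z-scores of log2 CPM, in units of the SD over the 10 mice. Control mice 1 to 5 scored −0.41, −0.74, 1.01, 1.35 and −0.18, and KD mice 0.23, −0.36, −0.49, −0.26 and −0.15. Control mice 3 and 4 were far above the other 8, control mice 1 and 5 lay inside the KD range, and control mouse 2 lay below it. The mean score was 0.204 ± 0.918 (SD, n = 5 mice) on the control diet and −0.204 ± 0.273 on the KD, a difference of −0.41. It was −0.09 without control mouse 4 and −0.18 without control mouse 3. Without control mouse 4, 21 of 40 members were fitted lower, with a median log2 fold change of −0.0062.

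**Figure D3:**
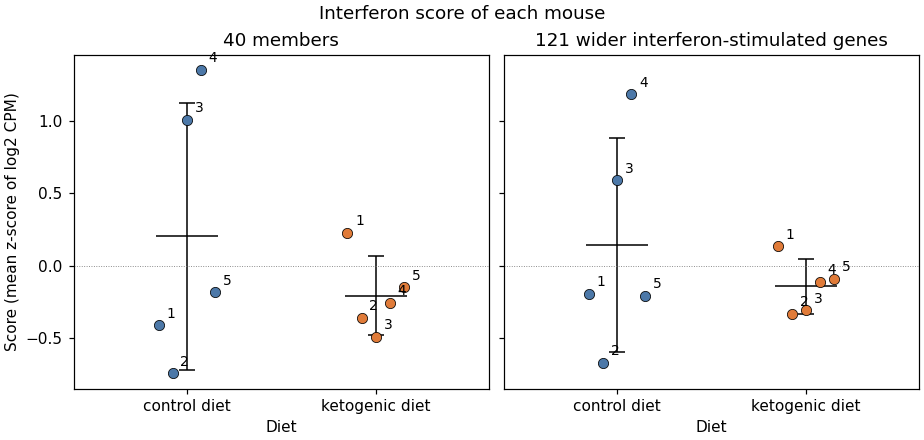
Interferon score of each mouse (y axis, mean z-score of log2 CPM) by diet (x axis) for the 40 members and for 121 other interferon-stimulated genes; points are mice with their replicate numbers, bars the mean and SD. Control mice 3 and 4 score 1.01 and 1.35 on the left, and 0.59 and 1.18 on the right, above all other mice.

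The 2 control mice, singled out after their values were seen, were high across most of the set. Control mouse 4 had the highest level of 22 members and control mouse 3 that of 10, while they were highest for 10.7% and 7.54% of all genes. Both were above the other 3 control mice for 30 of 40 members, against 11.2% of all genes. The ratio of highest to lowest control mouse had a median of 1.29 over the members, against 1.14 among KD mice, and was the larger on the control diet for 31 of 40, against 44.9% of all genes. Which of the 2 was higher varied by role. Control mouse 4 was highest for 6 of 8 GTPases and 5 of 6 genes of the Isg15 and ubiquitin group, whereas control mouse 3 was highest for 4 of 5 members of the OAS family, of which Oas3 had 0 reads in control mouse 4 and Oasl2 was level in both. Gbp7, for example, stood at 511, 499, 550, 753 and 517 CPM in control mice 1 to 5 and between 524 and 582 CPM on the KD. The mean z-score of the GTPases was 0.74 in control mouse 3 and 1.95 in control mouse 4, and that of the OAS family without Oas3 1.28 and 0.78. Summed markers of platelets were 561 and 660 CPM in these 2 mice and 405 to 552 CPM in the other control mice, those of macrophages 264 and 199 against 178 to 706 CPM, and those of lymphocytes 352 and 297 against 261 to 385 CPM. The part of platelets and lymphocytes in the result was not tested. With a macrophage or a cardiomyocyte marker score as a covariate, 0 of 40 members were called, against 1.31% and 0.0815% of all genes, and the difference in score between the diets was −0.48 and −0.83.

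**Figure D4:**
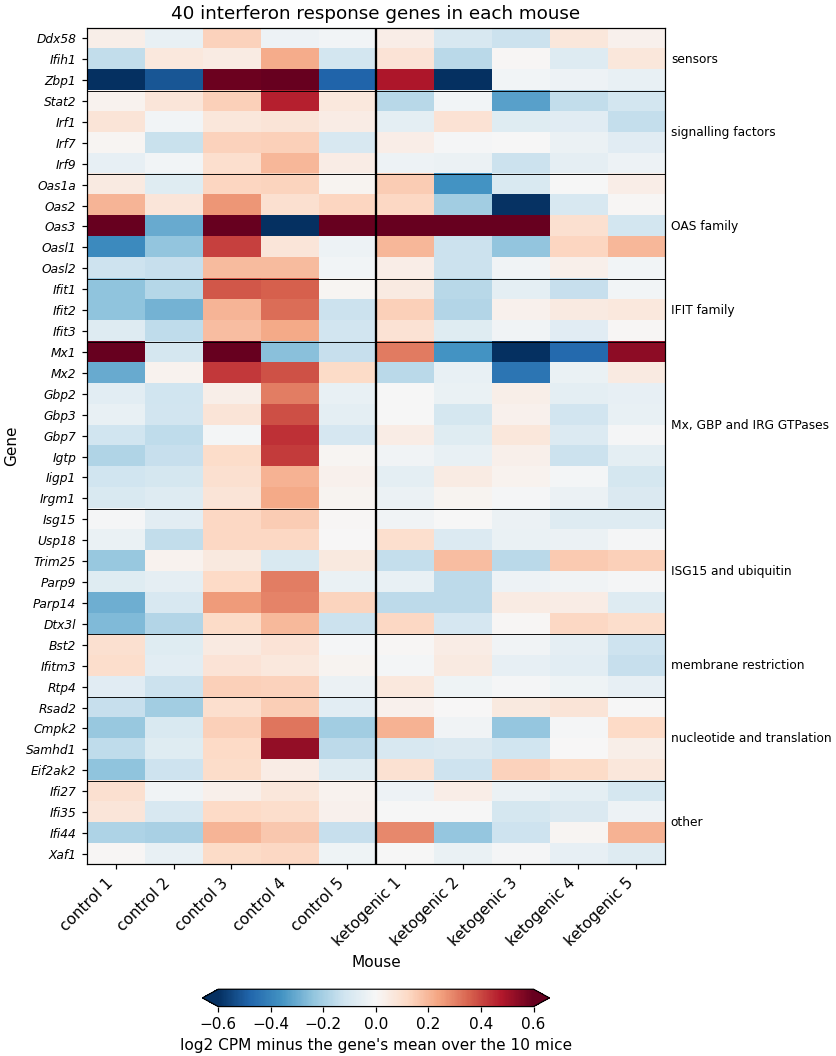
Log2 CPM of each of the 40 members (rows, by role) in each mouse (columns) minus the gene's mean over the 10 mice; colours are capped at −0.6 and 0.6, which Zbp1, Oas3 and Mx1 pass. Control mice 3 and 4 are red in most rows, and most cells of the KD columns are paler.

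The promoters of the members were searched for the binding motifs of the interferon factors. RefSeq windows on GRCm38.p6, from 250 bases before to 50 after the start of the gene, were at hand for 30 of the 40 members. The ISRE core, GAAANNGAAA on either strand, was found in 17 of these 30 genes (56.7%), against 3.99% of 27025 genes in the table, and the GAS, TTCNNNGAA, in 10 (33.3%), against 9.55%. The members were listed because interferon is known to induce them, so a high share of motifs follows from that choice. It says nothing about the diets or about control mice 3 and 4. A match is a description of the letters and not a site shown to be bound. The 250 bases before the start of 4 members described above show how the motifs lie. They are given 5′ to 3′ on the gene's own strand, with matches to either motif in capitals: Stat2 (chr10:128270248-128270497, plus strand), Irf1 (chr11:53769764-53770013, plus strand), Isg15 (chr4:156200819-156201068, minus strand) and Bst2 (chr8:71537473-71537722, minus strand).
Stat2: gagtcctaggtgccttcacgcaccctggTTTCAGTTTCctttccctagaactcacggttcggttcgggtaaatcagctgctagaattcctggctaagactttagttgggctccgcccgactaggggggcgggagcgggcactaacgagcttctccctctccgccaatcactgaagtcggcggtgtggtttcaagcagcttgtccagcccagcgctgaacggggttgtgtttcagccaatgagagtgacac
Irf1: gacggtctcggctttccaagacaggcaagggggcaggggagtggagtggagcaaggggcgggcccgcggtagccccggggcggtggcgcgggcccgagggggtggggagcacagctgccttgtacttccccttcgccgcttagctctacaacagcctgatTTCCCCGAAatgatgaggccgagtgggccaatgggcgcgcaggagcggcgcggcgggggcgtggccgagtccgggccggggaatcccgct
Isg15: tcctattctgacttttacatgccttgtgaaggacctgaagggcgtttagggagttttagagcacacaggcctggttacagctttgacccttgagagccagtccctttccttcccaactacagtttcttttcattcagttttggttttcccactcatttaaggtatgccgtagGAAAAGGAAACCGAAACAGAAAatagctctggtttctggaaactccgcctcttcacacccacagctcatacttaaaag
Bst2: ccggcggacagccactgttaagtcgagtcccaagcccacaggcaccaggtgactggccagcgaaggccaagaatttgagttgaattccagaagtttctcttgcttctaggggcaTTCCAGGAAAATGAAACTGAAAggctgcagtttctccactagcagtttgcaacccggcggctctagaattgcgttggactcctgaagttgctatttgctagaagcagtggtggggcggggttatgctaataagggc
Stat2 holds 1 ISRE core, on the other strand, starting 222 bases before the start. Irf1 has no ISRE core in either of its 2 windows and 1 GAS, 90 bases before the start shown. Isg15 has 3 overlapping ISRE cores from base 78 to base 57 before its start and no GAS. Bst2 carries 1 GAS that runs into 2 overlapping ISRE cores, from base 136 to base 115 before its start.

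The pathway that drives the members was not called either. Of 78 genes of ligands, receptors, kinases, factors, sensors, adaptors and inhibitors outside the 40, 54 were tested and 0 had an adjusted p under 0.05 in edgeR's quasi-likelihood test, while 9 were lower (16.7%, against 9.26% of all genes) and 3 higher (5.56%, against 8.57%) at an unadjusted p under 0.05. DESeq2 called 2, Nlrx1 and Stat3 (3.85% of those it tested, against 5.67% of all genes), and limma 0. Among 21 interferon genes, 14 had 0 reads in every mouse, which allows up to 3 reads per library, or 0.276 CPM in the least deep one. Ifng had 4 to 13 reads per mouse, and no ligand could be tested. The receptors were present. Ifnar1 had 159 ± 5.16 CPM on the control diet and 169 ± 6.86 CPM on the KD (log2 fold change 0.08, unadjusted p = 0.0475 and adjusted p = 0.273 in edgeR's test). Ifnar2 was at a log2 fold change of 0.21, Ifngr1 at −0.03, Ifngr2 at 0.02 and Il10rb, a chain of the interferon lambda receptor, at 0.02. Ifnlr1, the other chain, had 8 to 29 reads and a log2 fold change of −0.45. The kinases Jak1 (−0.05) and Tyk2 (−0.06) and the factor Irf3 (−0.04) had 95% intervals within −0.21 and 0.11. Genes with an unadjusted p under 0.05 that follow were named after their values were seen. Besides Ifnar1, Ptpn11 (0.14) and Ifi204, a DNA sensor listed under the synonym Ifi16 (0.42), were higher. Lower were the factors Irf2 (−0.10), Irf4 (−0.46), Irf8 (−0.29) and Stat3 (−0.16), the DNA sensor Cgas (−0.52), the kinase Ikbke (−0.52) and the inhibitors Nlrx1 (−0.53), Ptpn6 (−0.72) and Rnf125 (−0.13).

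A wider list of 130 other interferon-stimulated genes gave the same count. Of 121 tested, 0 had an adjusted p under 0.05 in edgeR's quasi-likelihood test, 11 were lower (9.09%, against 9.26% of all genes) and 5 higher (4.13%, against 8.57%) at an unadjusted p under 0.05, and the median log2 fold change was −0.07. DESeq2 called 5 (4.31% of those it tested, against 5.67% of all genes) and limma 0. The smallest p was that of Il15ra, the receptor chain that presents interleukin-15, at 112 ± 7.12 CPM on the control diet and 97.5 ± 4.11 CPM on the KD (log2 fold change −0.20, edgeR adjusted p = 0.0805). Ifitm1, a relative of Ifitm3, was at −0.36 (edgeR adjusted p = 0.0998) and Tmem140 at 0.23 (edgeR adjusted p = 0.107). The levels of these 3 genes did not overlap between the diets, nor did those of Casp4 (−0.19), named after its values were seen, so that 3 of 121 lay wholly lower, against 1.94% of all genes, and 1 wholly higher, against 2.4%. Control mice 3 and 4 were both above the other control mice for 61 of the 121 genes (50.4%, against 11.2% of all genes).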

How the data were processed

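Messenger RNA of 10 samples, 1 library per mouse, was analysed, with diets and replicate numbers taken from the labels. The authors deposited raw counts of reads per gene and RPKM values, which divide those counts by the length of the gene and the size of the library. The submitters' processing notes name bcl2fastq 2.17.1.14, STAR 2.3, HTSeq 0.6.0 and the build mm10. The annotation release, the treatment of reads with several positions and any removal of duplicates were not given in the sources used here. Ifit3, Oas1a and the GBPs have close copies, between which reads may be split.

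Of 46983 identifiers, 46488 were found in GENCODE M21, 37902 of them with the same version. Counts were normalized by TMM, filtered with filterByExpr and tested with the quasi-likelihood F-test of edgeR 4.0.16 in R 4.3.3, with Benjamini-Hochberg adjustment over 15949 genes. SE values were obtained by dividing each log2 fold change by √F. CPM use TMM library sizes, and scores use log2 CPM with a prior count of 2. Tests were checked on simulated counts that had no limit on reads per start position, so this check does not cover capped reads. Alternatives were other size factors, other filters, DESeq2 1.42.0, limma 3.58.1 on log2(RPKM + 1) and log2(RPKM + 0.1), the replicate block, cell type scores as covariates, each mouse left out, other forms of the score and, added after the data were seen, a correction for start positions and a score over the less saturated members.

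The members and the gene lists were chosen with earlier results of these data known, so scores and medians carry no p. Values in every mouse are given for the 8 members with the smallest unadjusted p and the 4 with the highest mean RPKM, and those of Zbp1, Ifit1 and Gbp7 were added after they were seen. Of the pathway the receptors, Jak1, Tyk2 and Irf3 are named, and 1 gene that meets this rule is not reported here, and of the wider list the 3 genes with the smallest p. Promoters that are missing from the RefSeq table were not searched for motifs.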

Additional observations from a re-analysis of the deposited data

Results flagged for a closer look

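Among 132 groups of 5 mice examined (each named gene and both scores in each diet), 7 had a mouse set apart from the other 4 by more than 0.71 of the whole range, and chance, at about 1 in 20, gives 6.6. Members made up 80 of the groups and 5 of the 7. The cause was not tested. Control mouse 4 was apart at the top for Stat2, with 417 CPM against 307 to 333 CPM in the other control mice, and for Gbp7, with 753 CPM against 499 to 550 CPM, as it was for the pathway gene Irf8, with 77.8 CPM against 53.2 to 58.1 CPM. Control mouse 3 was apart at the top for Casp4, of the wider list, with 108 CPM against 89.4 to 94.3 CPM. KD mouse 2 was apart at the bottom for Eif2ak2, with 128 CPM against 147 to 154 CPM in the other KD mice, and for Parp9, with 165 CPM against 179 to 183 CPM. KD mouse 3 was the lowest for Irf9, with 271 CPM against 285 to 290 CPM.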

How the results depend on the processing

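Over 22 alternatives, the median log2 fold change of the members stayed below 0 (−0.11 to −0.0062) and the score difference, over 23, did too (−0.83 to −0.05, the last being on the unscaled log2 CPM). With the DESeq2 Wald test 816 genes in all, 1 member (Stat2, adjusted p = 0.00824), 2 pathway genes (Nlrx1 and Stat3) and 5 wider genes (Helz2, Ifitm1, Il15ra, Plscr2 and Tmem140) had an adjusted p under 0.05. Leaving out 1 mouse gave 0 to 1 members and 0 to 1 wider genes, namely Irf1 and Tor3a without KD mouse 2, when 492 genes in all (3.05%) were called, and Slfn4 without KD mouse 4. Genes given here and not in the report were named after their values were seen. The lowest adjusted p of any member in the other fits lay between 0.0710 and 0.200. A covariate for cardiomyocyte markers left 13 genes called in all, and the log2 fold change turned to −0.00398 for Eif2ak2, 0.0327 for Mx1, −0.0796 for Rsad2, −0.0427 for Oasl1, −0.11 for Ifit2, 0.0552 for Tyk2, 0.13 for Irf3 and −0.00259 for Il10rb. With the macrophage score Cmpk2 turned to −0.0188.

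Leaving out 1 mouse turned the sign of 18 of 64 named genes, and for 12 of them this happened without control mouse 4. The log2 fold changes then ranged from −0.0273 to 0.178 for Oasl1, −0.0322 to 0.125 for Ifit2, −0.0314 to 0.111 for Cmpk2, −0.0703 to 0.00684 for Irf3, −0.161 to 0.520 for Oas3, −0.0621 to 0.00259 for Irf7, −0.0616 to 0.000995 for Usp18, −0.0702 to 0.0233 for Ifit3, −0.0523 to 0.0111 for Rtp4, −0.180 to 0.0108 for Samhd1, −0.156 to 0.00289 for Igtp, −0.524 to 0.167 for Zbp1, −0.0809 to 0.00324 for Iigp1, −0.0841 to 0.0259 for Gbp2, −0.0744 to 0.0203 for Ifih1, −0.0740 to 0.0882 for Gbp7, −0.0435 to 0.0634 for Ifngr2 and −0.000227 to 0.126 for Ifi44.

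Mice of the 2 diets with the same number deviated together little (correlations −0.134 to 0.094 across genes), so the numbers were not taken as pairs. With the replicate block 113 genes were called in all in place of 213, the members stayed at 0, with a median log2 fold change of −0.06 and a score difference of −0.41, and 2 members in place of 4 had an unadjusted p under 0.05. Depth limits Oas3 and the ligands, and saturation of start positions limits at least the 6 members with the highest shares used. Library depth also bears on the CPM of Irf1 and Ifi27, whose raw reads varied little.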

Other observations

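The wider list showed the same 2 control mice. Of its 121 tested genes, 88 were highest of the 10 mice in control mouse 3 or 4 (72.7%, against 18.3% of all genes tested), 63 of them in control mouse 4. The genes that follow were picked after their values were seen, for the range among control mice. Batf2, a transcription factor induced by interferon gamma, had 24.7, 24.7, 36.1, 116 and 38.1 CPM in control mice 1 to 5 and 29.0 to 39.3 CPM on the KD. Cd274, which encodes the checkpoint ligand PD-L1, had 200, 204, 274, 549 and 263 CPM in control mice and 250 to 309 CPM on the KD. Tap1, the peptide transporter of antigen presentation, had 179, 212, 224, 416 and 205 CPM in control mice 1 to 5. Nlrc5, the activator of MHC class I genes, belongs to the pathway genes and not to the wider list. It had 38.9, 36.9, 46.4, 109 and 38.3 CPM in control mice 1 to 5. In these 4 genes control mouse 4 was the highest of all 10 mice. The ratio of highest to lowest control mouse was 4.68 for Batf2 and 2.75 for Cd274, against 1.35 and 1.24 among KD mice. Oas3, at 0 reads in control mouse 4, was among the members that did not follow this mouse.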
